A study of Mus musculus with 10 samples.

Results

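Prolactin signalling was examined through 9 genes: the ligands Prl and Gh, the receptors Prlr and Ghr, the transducers Stat5a and Stat5b, and the downstream genes Cish, Socs2 and Elf5. The genes were picked by name from the 55359 genes of the deposited table, and Prl was picked because its counts were known to fall in the same comparison that is described here. Its difference between groups is therefore given as a description without a test, and the same was done for the other 8 genes. Of the 9 genes, 7 passed the filter on low values, set at 1 normalized count on average over the tumors. Gh and Elf5 did not pass it.

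RNA was sequenced from 10 orthotopic tumors grown from cells of the murine pancreatic cancer line KPC K8484, whose alleles were made with Pdx1-Cre and which expressed luciferase. The cells were injected into the pancreas of C57BL/6 mice (C57BL/6 J in the methods) at 10 weeks of age. The titles of the labels call the tumors PDX, whereas their source field and the methods name KPC K8484 cells. Normoglycemic mice drank regular water (CTRL, n = 5 tumors), and mice of the other group drank water with 30% dextrose for 14 days (D30, n = 5 tumors). All tumors came from the same cell line, and each library also held RNA of host cells in the tumor and of the pancreas around it, so that fewer cells of a type and less RNA per cell cannot be told apart. Markers of tumor epithelium, Krt8, Krt18, Krt19, Krt7, Epcam, Cdh1, Sox9, Msln and Muc1, summed to between 263349 and 391679 normalized counts in CTRL tumors against between 405889 and 597478 in D30 tumors. Each library held between 29192261 and 42122304 reads. Tumors are named by their column in the table, N1, N2, N4, N5 and N6 for CTRL and T1, T2, T4, T5 and T7 for D30.

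Some libraries stood apart. T4 held 841 reads of Y-linked genes, and the other 9 tumors held 0. The methods state that orthotopic experiments used as many male as female mice, which these reads do not reflect. By these reads T4 was the only library in which RNA of male cells was found. No column was tied to an animal, so that the recorded sex of each host is not known here. T5 had the fewest genes with a read, 20482, against 23446 to 25912 in the other tumors. Markers of pancreatic acinar cells summed to 31575 normalized counts in N2 and 69262 in N6, and to 193 to 7008 in the other 8 tumors.

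Prolactin is a peptide hormone made mainly by lactotrophs of the anterior pituitary, where the POU-domain factor POU1F1 (Pit-1) activates its gene and dopamine restrains it. Its receptor, a class I cytokine receptor that is closely related to the growth hormone receptor, activates JAK2, which phosphorylates STAT5A and STAT5B. STAT5 dimers then bind TTCNNNGAA sites and induce feedback inhibitors such as Cish and Socs2. In the mammary gland the same route drives alveolar differentiation through Elf5. Rodents carry a large family of prolactin-related genes, most of which are expressed in placenta and decidua.

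Prl lies on chromosome 13 (GRCm38, 27057570 to 27065205, plus strand), with 5 exonic blocks. The 250 bases before the RefSeq starts of Prl and of Prl3d2, its family neighbor, are shown because both genes had many counts in CTRL tumors and few in D30 tumors, and because POU1F1 sites are the known feature of the Prl promoter. Both sequences are RefSeq (GRCm38.p6), plus strand, for Prl chr13:27057320-27057569 and for Prl3d2 chr13:27121445-27121694. Capitals mark matches to TATNCAT, a core of the POU1F1 site, searched on both strands.
Prl: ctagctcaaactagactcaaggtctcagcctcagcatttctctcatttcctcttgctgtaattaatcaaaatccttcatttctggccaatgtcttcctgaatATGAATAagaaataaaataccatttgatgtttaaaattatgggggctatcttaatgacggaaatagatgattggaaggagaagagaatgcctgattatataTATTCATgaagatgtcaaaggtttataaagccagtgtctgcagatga
Prl3d2: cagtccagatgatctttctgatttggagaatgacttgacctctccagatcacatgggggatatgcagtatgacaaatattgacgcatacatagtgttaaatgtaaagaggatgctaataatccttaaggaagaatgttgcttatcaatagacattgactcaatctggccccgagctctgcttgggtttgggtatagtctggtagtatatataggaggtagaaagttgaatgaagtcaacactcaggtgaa
The Prl window held 2 matches, TATTCAT that began 47 bases before the start and, on the other strand, ATGAATA that began 148 bases before it. The Prl3d2 window held none. At least 1 match occurred in 7.92% of the 32851 RefSeq windows of this length. TTCNNNGAA, the core of a STAT site, occurred in 7.02% of the windows and in neither of these. Among the 9 genes, 7 had a window, and the only STAT match was TTCTAGGAA, 110 bases before 1 of the starts of Prlr. A match is a stretch of letters and was not tested for binding.

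Prl had many reads in CTRL tumors and nearly none in D30 tumors. The CTRL tumors had 1938 (N1), 1895 (N2), 251 (N4), 968 (N5) and 685 (N6) normalized counts, and the D30 tumors 5.14 (T1), 1.15 (T2), 0 (T4), 0 (T5) and 13.8 (T7). The lowest CTRL tumor, N4, was far above the highest D30 tumor, T7, so that the groups did not overlap. CTRL tumors averaged 1147 ± 747 normalized counts and D30 tumors 4.03 ± 5.88 (SD, n = 5 each), about 285-fold apart. The fold is rough, since 13 of the 19 D30 reads came from T7 and T2, T4 and T5 held at most 1 read each, and without T7 it was about 729.9-fold. In reads, the CTRL tumors held 6631 in all, between 275 and 2621 each. On the scale of log2(normalized count + 1), which understates the change of genes with few counts, the difference between groups was -8.30 (standard error 0.78). It lay between -8.90 and -6.87 under the other settings and with each tumor left out in turn. No 150-base stretch of the Prl exons was shared with another gene of the annotation. The start of Prl overlaps Gm47888, an annotated gene on the minus strand, and the sources used here do not say whether reads were counted by strand. In CTRL tumors Gm47888 averaged 11.6 ± 9.57 normalized counts, and in D30 tumors 0.92 ± 1.26 (SD, n = 5 each), far fewer than Prl in the first group.

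**Figure D1:**
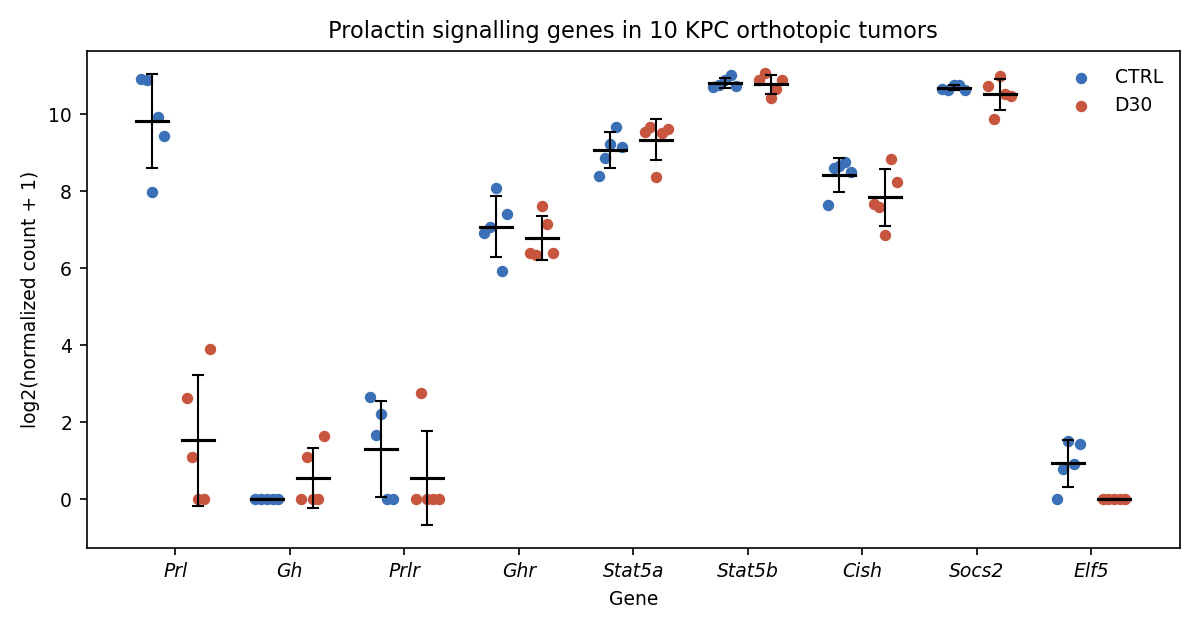
Levels of the 9 genes in log2(normalized count + 1), with 1 point per tumor, CTRL in blue and D30 in red, and bars for the mean and SD of 5 tumors. Prl separates the groups, with 251 to 1938 normalized counts in CTRL tumors against 0 to 13.8 in D30 tumors, whereas the points of the other 6 genes that passed the filter overlap.

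The 7 genes that passed the filter were part of a fit over 24560 genes, in which a gene was called at an adjusted p under 0.05 (limma with Benjamini-Hochberg adjustment). Of the 7, 1 was called, Prl, which its choice for this difference had fixed, so that nothing is read from the count. Over all genes tested, 2.76% were called, 1.4% higher and 1.36% lower in D30 tumors. The groups did not overlap for 1 of the 7 genes, Prl, and for 6.19% of all genes tested, 3.32% with lower values in D30 tumors. The median difference of all genes tested was -0.06 on the log2 scale, and that of the 7 genes was -0.30.

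Per kb of exonic length, Prl had the highest mean of the 9 genes in CTRL tumors, with 815 ± 531 normalized counts per kb (SD, n = 5). Stat5b followed with 325 ± 30.9 (SD, n = 5), and its range of 299 to 372 lay within that of Prl, which was 178 to 1376. Socs2 had 173 ± 8.14 (SD, n = 5) and did not overlap with Stat5b. Stat5a at 77.8 ± 24.8 and Cish at 55.0 ± 14.01 (SD, n = 5 each) overlapped with each other and lay above Ghr at 16.6 ± 8.62 (SD, n = 5). Elf5, Prlr and Gh had at most 0.343 normalized counts per kb in any CTRL tumor. In D30 tumors Stat5b, Socs2, Stat5a, Cish and Ghr followed each other in the same order, each pair after the first overlapping, but Prl stood below Ghr, with 2.86 ± 4.18 against 12.8 ± 5.58 normalized counts per kb (SD, n = 5 each), and the ranges of this pair overlapped.

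Growth hormone, the pituitary hormone closest to prolactin in its signalling, was at 0 in all CTRL tumors. In D30 tumors Gh had 1 read in T2 and 2 reads in T7, at or under the floor of 3 reads, so that no fold is given. Levels of both groups could not be told from 0 at this depth.

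The other prolactin family genes showed that Prl was not the only member read in these tumors. Of 25 such genes, 12 passed the filter and 11 had no read in any tumor. Prl3d2, which encodes a placental lactogen that binds the prolactin receptor, passed the test and fell. It had 5679, 4094, 1691, 1280 and 1686 normalized counts in the CTRL tumors and 20.6, 112, 5.78, 279 and 250 in the D30 tumors, in the order of the columns. The groups did not overlap, and N1 and N2 were highest, as they were for Prl. The means were 2886 ± 1917 and 134 ± 127 (SD, n = 5 each), and the log2 difference was -5.22 (standard error 0.90, adjusted p = 0.00840, limma). Its neighbor Prl3d1 had 42.1, 7.23, 8.22, 0.89 and 4.28 normalized counts in CTRL tumors against 0 to 2.13 in D30 tumors (log2 difference -1.90, standard error 0.73, adjusted p = 0.1999). Of the exonic stretches of 150 bases in Prl3d2, 33.9% were shared with Prl3d3 or Prl3d1, so that reads among these could be divided differently. Prl3d3 had at most 7.36 normalized counts in any tumor. Of the 12 genes tested, 1 passed lower and 0 higher, with 2.76% passing over all genes tested. Their median difference was -0.55, against -0.06 over all genes tested, and turned its sign with edgeR and DESeq2, reaching 0.05.

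The family genes with the most counts were the proliferins Prl2c2 and Prl2c3, growth factors of placenta and of proliferating cells that lie at 12790816 to 13005383 of chromosome 13, away from the Prl cluster. Prl2c3 had 16390, 13271, 14128, 7543 and 11842 normalized counts in the CTRL tumors and 1695 (T1), 2962 (T2), 31874 (T4), 23103 (T5) and 2154 (T7) in the D30 tumors. Prl2c2 had 4446 to 9128 in CTRL tumors, 11875 in T4 and 9319 in T5, and 1135 to 1630 in T1, T2 and T7. For both, T4 and T5 were above every CTRL tumor and the other 3 D30 tumors were below every CTRL tumor. The log2 difference was -1.02 (standard error 0.73, adjusted p = 0.512) for Prl2c3 and -1.09 (standard error 0.60, adjusted p = 0.379) for Prl2c2. Prl2c5 was likewise highest in T4 at 101 and T5 at 236, against 7.36 to 35.1 in CTRL tumors and 3.08 to 9.16 in the other D30 tumors. Prl, in contrast, was at 0 in T4 and T5. Reads of Prl2c2 and Prl2c3 are uncertain between the pair, which shared 41.5% and 36.3% of their 150-base stretches with each other or with Gm7040. Of all counts of Prl and these 25 genes, Prl made up 1.08% to 7.24% in CTRL tumors against 0% to 0.36% in D30 tumors.

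**Figure D2:**
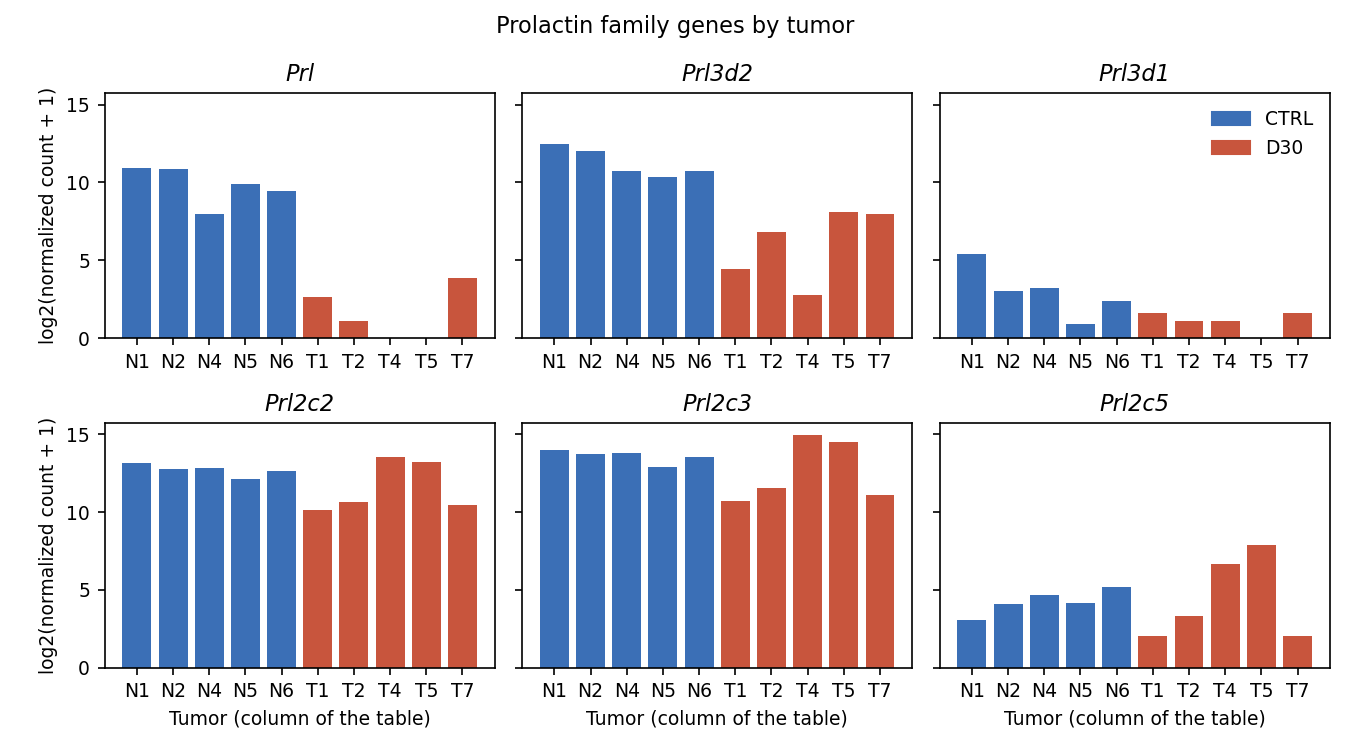
Levels of 6 prolactin family genes by tumor in log2(normalized count + 1), CTRL in blue and D30 in red. Prl and Prl3d2 are low in all D30 tumors, whereas Prl2c2, Prl2c3 and Prl2c5 are above the CTRL tumors in T4 and T5 and, apart from T2 for Prl2c5, below them in T1, T2 and T7.

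Within 500 kb of Prl the annotation holds 23 genes, Prl included, of which 15 had no read in any tumor and 7 passed the filter. Among the neighbors of Prl, 1 passed the test, Prl3d2, whose start lies 64.1 kb from that of Prl. Prl6a1, a further family gene, had 0 to 10.1 normalized counts in CTRL tumors against 6.87 to 41.6 in D30 tumors (log2 difference 2.25, standard error 0.71, adjusted p = 0.118). Prl8a9 had 2.17 to 13.7 normalized counts in CTRL tumors against 1.03 to 76.3 in D30 tumors (log2 difference 0.80, standard error 0.90, adjusted p = 0.701), so that lower values were not shared by all counted genes of the cluster.

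**Figure D3:**
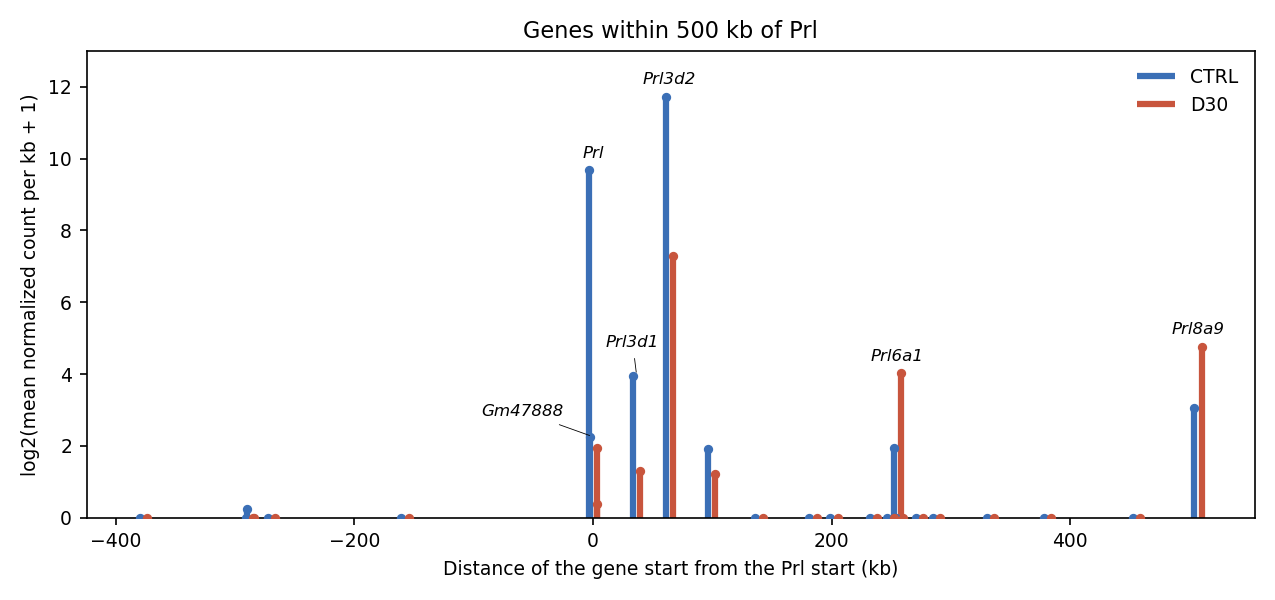
Genes within 500 kb of Prl by the distance of their start from the Prl start in kb, with the group mean in log2(normalized count per kb + 1), CTRL in blue and D30 in red (drawn side by side). Prl and Prl3d2 carry most of the counts of the region in CTRL tumors, and genes without a read stand at 0.

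Markers of tissues that express these hormones were counted beside them. Of 15 anterior pituitary markers other than Gh and Prl, 7 passed the filter, and 0 passed the test in either direction. Their sums were 51.3 to 89.8 normalized counts in CTRL tumors against 42.8 to 122 in D30 tumors, and Lhb, Fshb and Cga had no read in any tumor. Tshb, the beta chain of thyrotropin, had the highest mean of them, with 20.2 to 41.1 in CTRL tumors and 11.6 to 64.1 among D30 tumors. Pou1f1, the activator of Prl in lactotrophs, had 2.89 to 6.85 normalized counts in CTRL tumors against 1.03 to 16.2 in D30 tumors (log2 difference 0.63, standard error 0.60, adjusted p = 0.640). Of 6 trophoblast and decidua markers outside the prolactin family, 3 (Tpbpa, Psg23 and Synb) had no read, and the sums of all 6 were 4.21 to 15.9 in CTRL tumors against 2.31 to 10.7 in D30 tumors. The part of such cells in the difference of Prl was not tested.

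Most tested markers of islet, acinar, endothelial, and macrophage and dendritic cells were lower in D30 tumors. Of the sums of these lists, only the endothelial ones did not overlap between the groups. For comparison, 2.76% of all genes tested were called, 1.36% lower in D30 tumors. Of 13 islet markers that passed the filter, 5 fell in D30 tumors (Ppy, Slc2a2, Gcg, Iapp and Ins1), of which Ppy kept its call with each tumor left out, and the sums of all 15 were 69.1 to 1576 in CTRL tumors against 24.7 to 118 in D30 tumors. By tumor, the CTRL islet sums were 224 (N1), 1282 (N2), 190 (N4), 69.1 (N5) and 1576 (N6). For acinar markers 0 of 13 passed the test, with 12 lower and sums of 304 to 69262 in CTRL tumors against 193 to 7008 in D30 tumors. Endothelial sums were 11592 to 19020 in CTRL tumors against 5807 to 10444 in D30 tumors, and 1 of 8 markers, Cdh5, fell (adjusted p = 0.0117). Macrophage and dendritic cell sums were 18822 to 31416 in CTRL tumors against 9943 to 27120 in D30 tumors, and 1 of 10 markers, Csf1r, fell (adjusted p = 0.0449, up to 0.147 and above 0.05 under 11 of 20 other settings). The part of these cells in the difference of Prl was not tested.

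Prlr, the receptor of prolactin and placental lactogens, had hardly any reads. It had 5.26 (N1), 2.17 (N2), 3.65 (N4), 0 (N5) and 0 (N6) normalized counts in CTRL tumors, and in D30 tumors 5.73 in T2 and 0 in the other 4. This amounted to 12 reads over the CTRL tumors and 5 over the D30 tumors, at most 5 in any tumor. The log2 difference was -0.76 (standard error 0.74), less than the spread between tumors, and a difference in Prlr was not detectable at this depth. Transcript of the ligand and of its receptor were thus found at very different levels in CTRL tumors, with 815 normalized counts per kb for Prl and 0.14 for Prlr.

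Ghr, the growth hormone receptor, was read in all tumors. It had 119, 133, 270, 59.3 and 169 normalized counts in the CTRL tumors and 82.3, 80.2, 194, 140 and 83.1 in the D30 tumors. The groups overlapped, with N5 lowest and N4 highest among all 10, and the log2 difference was -0.30 (standard error 0.41). N4 was also the tumor with the highest sum of adipocyte markers, 11328 normalized counts against 5545 to 8476 in the other 9.

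Among 28 other class I cytokine receptors, all of which passed the filter, 1 rose and 0 fell (3.57% called, 2.76% over all genes). This was Il7r, the interleukin 7 receptor alpha chain, with 30.1 to 42.1 normalized counts in CTRL tumors and 88.4 (T1), 67.6 (T2), 387 (T4), 228 (T5) and 92.7 (T7) in D30 tumors. Its log2 difference was 1.92 (standard error 0.45, adjusted p = 0.0406), and the adjusted p was above 0.05 under 8 of 20 other settings, where it reached 0.117. Lifr, the leukemia inhibitory factor receptor, had 497 to 704 normalized counts in CTRL tumors against 308 to 578 in D30 tumors (log2 difference -0.75, standard error 0.22, adjusted p = 0.0951). Il21r had 112 to 235 and 49.2 to 105 (log2 difference -0.97, standard error 0.31, adjusted p = 0.124). The median of the 28 receptors was -0.05, and its sign turned under 8 of 20 other settings.

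Among 15 other ligands of receptors that signal through STAT5, 10 passed the filter, 1 rose and 0 fell. The share called was 10%, against 2.76% over all genes tested. Thpo, thrombopoietin, which acts through JAK2 and STAT5, had 70.5, 57.8, 84.1, 77.0 and 64.2 normalized counts in the CTRL tumors and 419, 412, 112, 363 and 376 in the D30 tumors. The groups did not overlap, and T4 was the lowest D30 tumor. The log2 difference was 2.11 (standard error 0.36, adjusted p = 0.00828, limma). Csf3 had 36.3 to 83.1 normalized counts in CTRL tumors against 95.6 to 151 in D30 tumors, which did not overlap (log2 difference 0.97, standard error 0.32, adjusted p = 0.132). Il5 had at most 3.65 normalized counts in any tumor (log2 difference -1.57, standard error 0.51, adjusted p = 0.129).

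The transducers of the pathway were read in every tumor, and their values overlapped between the groups. Stat5b, the more highly counted of the pair, had 1655, 1712, 1889, 2059 and 1685 normalized counts in the CTRL tumors and 1873, 2131, 1379, 1598 and 1881 in the D30 tumors. The lowest and the highest tumor, T4 and T2, were both D30. The log2 difference was -0.03 (standard error 0.17), and its sign turned under 4 of 20 other settings, with values of -0.26 to 0.05. Stat5a had 335, 467, 591, 814 and 569 normalized counts in the CTRL tumors and 744, 810, 331, 723 and 778 in the D30 tumors. T4 and N1 were at the low end, whereas the other 4 D30 tumors lay within 723 to 810. The log2 difference of Stat5a was 0.28 (standard error 0.30), and without T4 it was 0.52 (standard error 0.23). Stat5b exceeded Stat5a in counts by 2.21-fold to 4.95-fold within each tumor. Of the 150-base stretches, 2.21% of Stat5a and 3.16% of Stat5b were shared with the other gene.

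Among the Janus kinases and the other STATs, 0 of 9 genes passed the test with limma, 0 had an unadjusted p under 0.05, and 0 were called by edgeR or DESeq2. Jak2, the kinase bound by the prolactin and growth hormone receptors, had 5219 to 6368 normalized counts in CTRL tumors against 3649 to 7626 in D30 tumors (log2 difference -0.10, standard error 0.20, adjusted p = 0.843). The smallest p values of this list belonged to Stat4, with at most 32.0 normalized counts in any tumor (log2 difference -1.22, standard error 0.70, adjusted p = 0.398), to Stat6 and to Tyk2. Stat6 had 2430 to 3208 normalized counts in CTRL tumors, 2055 in T4 and 3937 to 5369 in the other D30 tumors (log2 difference 0.39, standard error 0.24, adjusted p = 0.435). Without T4 it was 0.62 (standard error 0.14, adjusted p = 0.0239), the only gene of this list called by leaving out a tumor. Tyk2 had 704 normalized counts in T4 and 1653 to 3590.4 in the other 9 tumors (log2 difference -0.23, standard error 0.39, adjusted p = 0.818), and without T4 the sign turned, to 0.19. T4 was also the lowest of the 10 tumors for Jak1 at 2491, Jak3 at 470 and Stat3 at 2820 normalized counts, as it was for Stat5a, Stat5b and Cish. For Jak2, in contrast, T4 was the highest of the 10 tumors, at 7626.

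Cish, the STAT5-induced inhibitor that blocks cytokine receptors, had 199, 385, 397, 428 and 358 normalized counts in the CTRL tumors and 203, 192, 116, 458 and 301 in the D30 tumors. N1 was low among CTRL tumors and T5 was the highest of all 10, so that the groups overlapped. The means were 353 ± 90.0 and 254 ± 132 (SD, n = 5 each), with a log2 difference of -0.58 (standard error 0.35). It was negative under all 20 other settings, from -0.83 to -0.33, and passed the threshold under 0 of them. The value of -0.33 was that without T4. T4 and T5, both with no read of Prl, had the least and the most Cish of the 10 tumors. A link between Prl and Cish was not tested.

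Socs2, the inhibitor best known for limiting growth hormone signalling, had 1618, 1571, 1737, 1721 and 1585 normalized counts in the CTRL tumors, a narrow range. The D30 tumors had 1688, 943, 2030, 1456 and 1416. T2, T5 and T7 were below every CTRL tumor, T4 was above every CTRL tumor, and T1 was within their range. The log2 difference was -0.17 (standard error 0.20). Socs2 exceeded Cish in counts by 3.18-fold to 17.6-fold within each tumor, the highest in T4. Thus the groups overlapped for both of these STAT5-induced inhibitors.

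None of 16 other inhibitors of JAK-STAT signalling passed the test with limma or edgeR, 2 had an unadjusted p under 0.05, and DESeq2 called 1, Pias2. Pias2, a SUMO ligase, had 951 normalized counts in N1, 468 to 529 in the other CTRL tumors and 815 to 1206 in D30 tumors (log2 difference 0.83, standard error 0.23, adjusted p = 0.0722), and without N1 it was called. Ptpn1, a phosphatase that acts on JAK2, had 3090 to 6370 and 1637 to 3818 (log2 difference -0.62, standard error 0.26, adjusted p = 0.246). Socs5 had 1287 to 1437 in CTRL tumors against 378 to 1342 in D30 tumors (log2 difference -0.68, standard error 0.32, adjusted p = 0.297). Socs1 had 142 to 201 and 121 to 310 normalized counts (log2 difference 0.22, adjusted p = 0.754), and Socs3 had 2343 to 3614 and 1514 to 4475 (log2 difference -0.12, adjusted p = 0.865). The median of the list was -0.10, and without T4 it was 0.04.

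**Figure D4:**
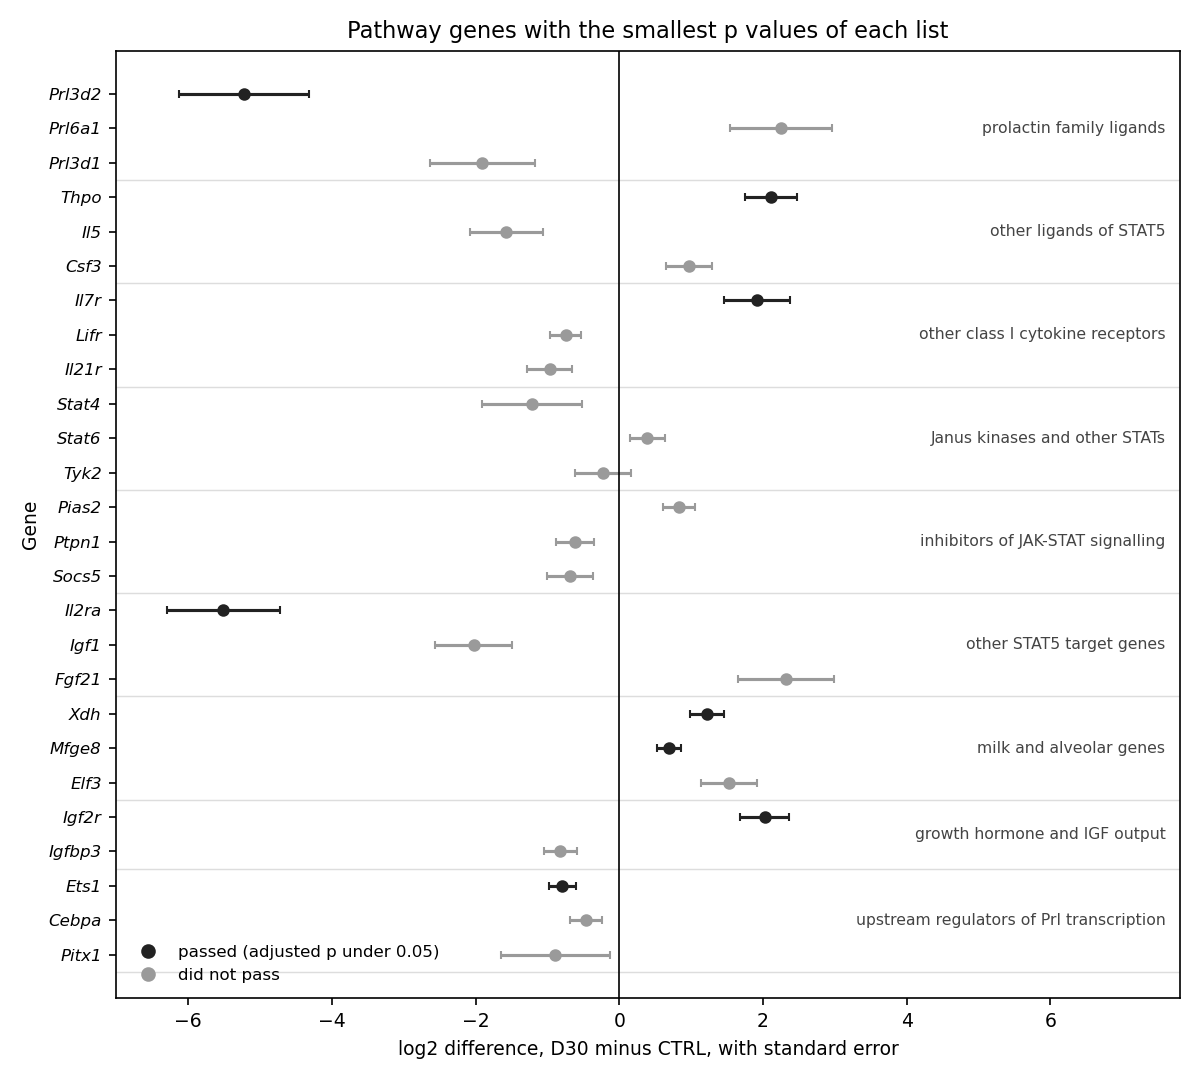
Difference of D30 minus CTRL tumors in log2(normalized count + 1) with its standard error, for the 3 genes with the smallest p value in each of 9 lists of pathway genes, black where the adjusted p was under 0.05 (limma) and gray otherwise. Igf1, which is in the STAT5 target and the IGF list, is drawn in the former, and the genes that passed point in both directions.

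Elf5, the STAT5 target that specifies mammary alveolar cells, was not read in any D30 tumor and had 0, 1, 2, 1 and 2 reads in the CTRL tumors. Both groups were at or under the floor of 3 reads per tumor, so that no fold is given. The most abundant milk protein genes Csn2, Wap, Csn1s2a and Csn1s2b had no read in any tumor. Among 16 milk and alveolar genes, 10 passed the filter, 2 rose and 0 fell (20% called, 2.76% over all genes). The median difference was 1.11 against -0.06 over all genes tested, with 8 of the 10 higher and 2 lower. The lower ones were the milk proteins Csn3 and Lalba, the latter with at most 6 reads in any tumor (log2 difference -0.74, standard error 0.60). The higher ones included Krt7, also a tumor epithelium marker, and Btn1a1 and Cidea, with 4 and 2 reads over the CTRL tumors. Xdh, xanthine oxidoreductase, which also serves milk fat secretion, had 495 to 728 normalized counts in CTRL tumors and 1280, 1279, 1164, 2665 and 1273 in the D30 tumors (log2 difference 1.22, standard error 0.24, adjusted p = 0.0176, and 0.0586 without N5). Mfge8, a milk fat globule protein also made by phagocytes and epithelium, had 6448 to 8752 and 9738 to 14242 (log2 difference 0.69, standard error 0.17, adjusted p = 0.0491), and its adjusted p was above 0.05 under 14 of 20 other settings. Elf3, an epithelial ETS factor, had 2573 to 5619 normalized counts in CTRL tumors, 3488 in T4 and 13027 to 16954 in the other D30 tumors (log2 difference 1.52, standard error 0.39, adjusted p = 0.0559). Xdh, Mfge8 and Elf3 are not restricted to mammary tissue. Csn3, kappa casein, was the only casein with many counts, 299 to 881 in CTRL tumors against 250 to 515 in D30 tumors (log2 difference -0.62, standard error 0.33, adjusted p = 0.353).

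Among 28 other STAT5 target genes, 27 passed the filter, 0 rose and 1 fell. The share called was 3.7%, near the 2.76% over all genes tested. The median was -0.07, and its sign turned under 4 of 20 other settings. Il2ra, the alpha chain of the interleukin 2 receptor and a marker of activated and regulatory T cells, had 159, 171, 192, 212 and 186 normalized counts in the CTRL tumors and 6.17, 27.5, 0, 0 and 4.26 in the D30 tumors. The groups did not overlap, and T4 and T5 were at 0, as they were for Prl. The log2 difference was -5.51 (standard error 0.79, adjusted p = 0.00338, limma). Sums of 14 T and NK cell markers were 468 to 921 normalized counts in CTRL tumors against 269 to 444 in D30 tumors, with 13 of 13 tested markers lower and 0 passing the test. Of these, 4 had an unadjusted p under 0.05. The part of these cells in the difference of Il2ra was not tested. Foxp3, the factor of regulatory T cells, had 5.26 to 18.8 and 0 to 6.17 normalized counts (log2 difference -1.89, adjusted p = 0.124, limma).

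Igf1, the growth factor that growth hormone induces through STAT5B in liver, had 871, 721, 542, 421 and 706 normalized counts in the CTRL tumors and 136, 290, 359, 30.9 and 199 in the D30 tumors. The groups did not overlap, but the adjusted p was 0.0641 (log2 difference -2.03, standard error 0.54). It was below 0.05 under 4 of 20 other settings, 0.0160 without T4 among them. Fibroblast markers, which summed to 81540 to 143257 in CTRL tumors against 34125 to 109110 in D30 tumors, were lower for 10 of 10 genes, and 0 of these passed the test while 6 had an unadjusted p under 0.05. Fgf21 had 0 to 5.99 and 5.33 to 44.6 normalized counts (log2 difference 2.32, standard error 0.67, adjusted p = 0.0871). Among targets with many counts, the groups overlapped for Ccnd1 with 8609 to 11752 and 7035 to 11936, Bcl2l1 with 7151 to 8604 and 4625 to 14343, Myc with 3877 to 5740 and 2664 to 8303, and Pim1 with 838 to 1372 and 1044 to 4730 normalized counts. They did not overlap for Pim3, with 3473 to 4219 and 4444 to 18196 normalized counts (log2 difference 0.75, adjusted p = 0.267, limma).

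Of 10 genes of growth hormone and IGF output, 8 passed the filter, 1 rose and 0 fell, with a median of -0.85. The share called was 12.5%, against 2.76% over all genes tested. Igf2r, the receptor that clears IGF2, had 352, 368, 366, 207 and 406 normalized counts in the CTRL tumors and 2367, 1620, 568, 1519 and 1350 in the D30 tumors. The groups did not overlap, with T4 lowest among D30 tumors (log2 difference 2.02, standard error 0.34, adjusted p = 0.00717). Igfbp3 had 9335 to 20765 and 5800 to 9414 (log2 difference -0.82, standard error 0.23, adjusted p = 0.0819).

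Of 16 regulators of Prl transcription, 11 passed the filter, 0 rose and 1 fell. The share called was 9.09%, against 2.76% over all genes tested. The median of the 11 was -0.25, and with edgeR and DESeq2 its sign turned, to 0.23. Ets1, an ETS factor that acts with POU1F1 on the Prl promoter, had 1815 to 2275 normalized counts in CTRL tumors against 892 to 1629 in D30 tumors (log2 difference -0.79, standard error 0.19, adjusted p = 0.0448). Its adjusted p was above 0.05 under 11 of 20 other settings, where it reached 0.148. Cebpa had 306 to 536 and 265 to 409 (log2 difference -0.46, standard error 0.22, adjusted p = 0.305), and Pitx1 had 1.77 to 18.0 and 0 to 18.3 (log2 difference -0.89, standard error 0.76, adjusted p = 0.599). Esr1, the estrogen receptor that raises Prl in lactotrophs, had 65.5 to 118 and 21.3 to 238 normalized counts (log2 difference -0.25, standard error 0.52, adjusted p = 0.850).

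The 5 genes whose log2 values were most like those of Prl over the 10 tumors, among 17360 genes averaging 10 normalized counts or more, were H2-M10.6 (Pearson r 0.984), Srpk1 (0.983), Cep97 (0.978), AC167812.1 (0.976) and AC132253.9 (0.965). Since the 2 groups form separate clusters for Prl, these values describe the difference between groups as much as the order of tumors within them. With the group means removed, r was 0.80 to 0.82 for these 5 genes, which had been picked by the r over all tumors. H2-M10.6 had 47.3, 51.3, 10.96, 46.9 and 36.8 normalized counts in the CTRL tumors and 2.13 in T7 and 0 in the other D30 tumors, with N4 the lowest CTRL tumor and T7 the highest D30 tumor as for Prl. AC132253.9 had 600, 716, 372, 716 and 571 in the CTRL tumors and 68.2 to 211 in the D30 tumors, with T7 again highest. Srpk1, a kinase of splicing factors, had 5549 to 6085 and 3977 to 4642 normalized counts, a far smaller difference of -0.44 on the log2 scale. Prl3d2 stood at rank 263 with an r of 0.869, and Prl2c3 at rank 7574 with an r of 0.16. With the group means removed, r was 0.36 for Prl3d2 and -0.67 for Prl2c3.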

How the data were processed

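RNA sequencing of 10 KPC K8484 orthotopic tumors was used, 5 CTRL and 5 D30. The authors prepared strand-specific libraries, read them in pairs, trimmed them with Trim Galore and aligned them with STAR 2.7.0e. The methods name hg38 and the submitters' notes GRCm39, while the table lists mouse Ensembl genes. The values the authors deposited are a normalized signal, the read counts of each gene divided by DESeq2's size factor of the tumor. All values (100%) were whole multiples of 1 step per column within 0.01 read, which gave the reads back, 29192261 to 42122304 per tumor. This depth bounds low genes, and 3 reads per tumor were taken as the floor. Columns N were assigned to CTRL and columns T, the only other letter, to D30. Their numbers are not those of the labels, so no column was tied to an animal. P values set the difference between the groups against the spread between these tumors within each group.

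Genes averaging 1 normalized count or more, 24560 in all, were tested on log2(normalized count + 1) with limma 3.58.1 in R 4.3.3, with a mean-variance trend and Benjamini-Hochberg adjustment. A gene was called at an adjusted p under 0.05. The fit was tested on simulated data. Alternatives were pseudocounts of 0.5 and 5, a minimum mean of 10 or none, library size, TMM and upper-quartile scaling, edgeR 4.0.16 and DESeq2 1.42.0 on the recovered reads, and leaving out each tumor. The 9 genes and all lists were chosen with earlier results of these data known. Named were the 9 genes, list genes that passed, the 3 with the smallest p in each pathway list, genes within 500 kb of Prl, the leading marker genes, and the 5 most like Prl by Pearson correlation. The values of some list genes are not reported here. Further list genes (proliferins, Janus kinases, STATs, milk genes and STAT5 targets that did not pass) were named after their values were seen. Names, positions and exonic lengths came from GENCODE M21 (GRCm38), which named 94.1% of the identifiers, and promoters from RefSeq (GRCm38.p6).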

Additional observations from a re-analysis of the deposited data

Results flagged for a closer look

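In 12 of 74 groups of 5 tumors checked, the lowest or highest tumor was set apart. Its distance from the nearest neighbor was more than 0.71 of the range of the group. For normally distributed values chance gives such a gap in about 1 of 20 groups. Normalized counts, some at 0 in several tumors, need not follow that distribution, so that the 12 are not set against chance. Among the prolactin signalling genes, such a gap was found for Prlr in D30 tumors, where T2 had 5.73 normalized counts and the others 0. It was also found for Stat5a in D30 tumors, where T4 had 331 and the next lowest 723.

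T4 was also lowest for Thpo in D30 tumors, at 112 against 363 for the next. T2 was highest for Il2ra in D30 tumors, at 27.5 against 6.17. T5 was highest for Xdh, at 2665 against 1280, and for Pitx1, at 18.3 against 4.58. T1 was highest for Lifr in D30 tumors, at 578 against 362.

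In CTRL tumors N1 was highest for Prl3d1, at 42.1 against 8.22, and for Pias2, at 951 against 529, and lowest for Stat6, at 2430 against 3014. N2 was highest for Csf1r, at 3528 against 2652. N5 was lowest for Igf2r, at 207 against 352. The values are given in normalized counts, and their causes were not tested.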

How the results depend on the processing

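Of the 9 genes, 1 (Prl, chosen for this difference) was called under all 20 other settings. The number of all genes called was 678, and it was 1982 with DESeq2, 600 to 864 under the other alternatives with all 10 tumors, and 279 (without N2) to 1573 (without T4) with a tumor left out. With library size scaling, 240 of 864 calls were higher in D30 tumors and 624 lower, against 344 and 334, and the median of all genes was -0.27, against -0.06. DESeq2 called 2 prolactin family genes, 2 STAT5 ligands, 4 class I receptors, 1 inhibitor, 3 STAT5 targets, 6 milk and alveolar genes and 3 of the IGF output list. Library size scaling called 2 receptors, 2 STAT5 targets, 1 milk and alveolar gene and 3 IGF output genes. Without a filter 0 receptors, 1 milk and alveolar gene and 0 regulators of Prl were called, and 0 regulators with upper-quartile scaling or with edgeR and DESeq2's size factors. With each tumor left out in turn, 0 to 2 receptors, 0 to 1 inhibitors, 0 to 1 Janus kinases and STATs, 1 to 3 STAT5 targets, 0 to 5 milk and alveolar genes, 1 to 3 IGF output genes and 0 to 1 regulators were called. Leaving out T4 gave the most of these for STAT5 targets (Igf1, Il2ra and Gzmb), milk and alveolar genes (Xdh, Mfge8, Gata3, Elf3 and Krt7) and IGF output (Igf2r, Igf1 and Igfbp3). Of the 33 list genes recomputed under each alternative, Tyk2 turned its sign, with -0.23 in all tumors, 0.19 without T4 and -0.40 without N1, the range over the tumors left out. The calls of Prl3d2, Thpo, Il2ra and Igf2r were kept under every alternative, that of Xdh was lost without N5, those of Gcg and Slc2a2 without N2, and those of Iapp and Ins1 under 4 and 9 of 20. The median difference turned its sign for prolactin family genes, regulators of Prl and STAT5 targets with edgeR and DESeq2, for STAT5 ligands and receptors under 13 and 8 of 20 settings, and for Janus kinases, STATs, inhibitors and STAT5 targets without T4. The causes were not tested. No paired analysis was possible because the columns of the table carry no replicate number of the labels. Genes with few reads, Prlr, Gh and Elf5 among them, are limited by depth.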

Other observations

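Of the lists counted beside the report, skeletal muscle markers summed to 58.4 to 73.6 normalized counts in CTRL tumors against 99.7 to 169 in D30 tumors, and neutrophil markers to 802 to 4092 and 1307 to 16833, with 0 of 5 and 0 of 8 tested genes called (limma). At an unadjusted p under 0.05 these lists held 3 and 4 genes. B and plasma cell markers summed to 566 to 5811 and 286 to 2835, with 0 of 9 called and 2 at an unadjusted p under 0.05. Of 10 adipocyte markers 0 were called and 0 had an unadjusted p under 0.05. Mammary epithelium markers, almost wholly Csn3, summed to 301 to 885 and 254 to 521.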
